A study of Homo sapiens with 18 samples.

Results

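The transcripts of 10 enzyme genes that act at branch points of metabolism during inflammation were followed across all 18 libraries. The genes were ACOD1, IDO1, KYNU, IL4I1, WARS1, GCH1, SOD2, NAMPT, PTGS2 and CH25H, 10 of the 62754 genes in the count table, and each was found by its symbol. They were chosen by known role and selected on their behaviour in these same libraries, so their change from 0 h to 24 h of poly(I:C) is described here without a test, and the comparisons between transfections were tested across all genes with that choice in view.

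EA.hy926 is a line of human umbilical vein endothelial cells that was made by fusion with the A549 lung epithelial line. Cells received transfection reagent without siRNA (Mock), 10 nM of a non-targeting siRNA (siNT) or 10 nM of a pool of 3 siRNAs against ELMO1 (siELMO1), and 48 h later they were either lysed (0 h) or given 1 μg/ml of poly(I:C) and lysed after 24 h. Poly(I:C), an artificial double-stranded RNA, activates Toll-like receptor 3 (TLR3). All groups were kept in low serum overnight before poly(I:C), so this low serum was shared by controls and treated cells. No group was kept for 24 h without poly(I:C). In every change from 0 h to 24 h, poly(I:C) and the longer time in culture therefore cannot be told apart. Each of the 6 groups held 3 libraries.

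The enzymes draw on several pathways. ACOD1 makes itaconate from an intermediate of the citric acid cycle, and it is best known from activated macrophages. IDO1 opens the kynurenine pathway of tryptophan breakdown and KYNU acts further along it, while IL4I1 is a secreted oxidase of aromatic amino acids and WARS1 charges the tryptophan tRNA. GCH1 opens the synthesis of tetrahydrobiopterin, the cofactor of nitric oxide synthases. SOD2 removes superoxide in mitochondria, NAMPT recycles nicotinamide into NAD, PTGS2 (COX-2) makes the precursor of prostaglandins, and CH25H makes 25-hydroxycholesterol. Interferons and NF-kB are the textbook inducers of most of these genes.

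Library totals ran from 40374756 to 73850946 counts, and a count of 0 in a library allowed a level of up to 0.0406 to 0.0743 CPM (counts scaled to a common library size), set at 3 counts; this limit covers counting error only. ELMO1 lay at 2.66 to 3.32 CPM in the Mock and siNT libraries at 0 h and at 0.299 to 0.419 CPM in siELMO1, a fall to 11.6% of siNT (log2 fold change −3.11, SE 0.28, adjusted p = 2.7e-08, edgeR). Of the endothelial markers, CDH5 reached 339 to 978 CPM and PECAM1 47.5 to 322 CPM in every library. VWF ran from 3.5 to 42.8 CPM and KDR from 3.36 to 44.2 CPM, and CLDN5 stayed at or below 0.21 CPM. The epithelial keratins KRT7, KRT8 and KRT18 were each above 180 CPM in all libraries. The rest of the epithelial list was low, with EPCAM at 0.134 to 1.24 CPM, KRT19 at most 0.433 CPM and no count for CDH1. All 8 myeloid markers summed to 1.84 to 8.52 CPM, and the defining factor SPI1 never passed 3 counts. LYZ alone held 1.58 to 7.5 CPM, and no other myeloid marker passed 0.878 CPM. At 24 h the summed endothelial markers were 1483 to 1881 CPM in Mock, 1978 to 2206 CPM in siNT and 2613 to 3181 CPM in siELMO1. In the same order, the epithelial sums were 842 to 861, 1010 to 1056 and 1098 to 1314 CPM, and the myeloid sums 3.04 to 4.07, 4.27 to 4.96 and 5.17 to 8.52 CPM. All 3 sums thus differed between transfections, and their part in the results was not tested. The siELMO1 libraries 2 and 3 at 0 h stood apart, with 4.03% and 3.95% of counts on mitochondrial genes against 1.31% to 2.42% in the other 16, so results that rest on them are also given without them.

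After poly(I:C), 9 of the 10 genes stood higher in every transfection. In Mock, siNT and siELMO1 alike, all 3 libraries at 24 h lay above all 3 at 0 h for these 9 genes, and this was so for 34.9%, 32.9% and 28.7% of the 15167 genes tested in Mock, siNT and siELMO1, respectively. The median log2 fold change of the 9 genes was 4.61 in Mock, 2.57 in siNT and 3.85 in siELMO1, where the median over all genes tested was 0.01, 0.01 and 0.00. Nothing is read from them, since the response helped to choose the genes. ACOD1 and IDO1 passed the filter on low counts through their 24 h libraries, and CH25H, the remaining gene, did not pass it.

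**Figure D1:**
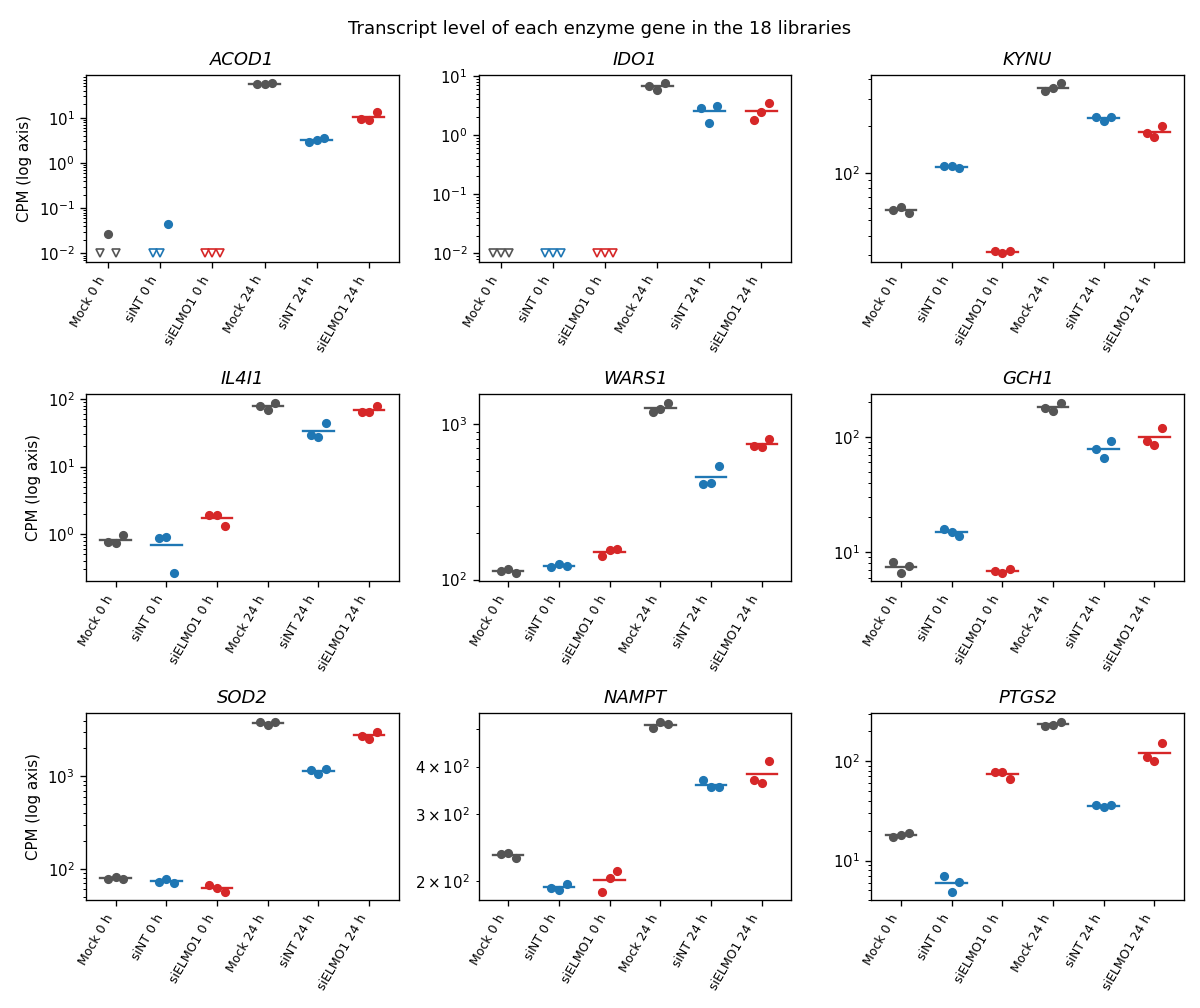
Transcript level of 9 enzyme genes in CPM after TMM scaling (log axis, with its own range in each panel) in every library of the 6 groups; points are libraries, lines are group means, and open triangles at the foot of a panel are libraries with no count. For each gene the 24 h libraries of a transfection sit above its 0 h libraries, and for every gene but IL4I1 the 3 Mock libraries at 24 h are above all others.

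ACOD1 was close to silent before poly(I:C), with 2 counts over the 3 Mock libraries, 3 over siNT and 0 over siELMO1. At 24 h it stood at 56.6, 57.1 and 57.8 CPM in Mock, at 2.94, 3.25 and 3.62 CPM under siNT, and at 9.21, 8.94 and 13.3 CPM in siELMO1. The 3 groups did not overlap at 24 h, with Mock highest and siNT lowest. Over the counts seen at 0 h, the ratio of 24 h to 0 h was 6230 in Mock (95% exact counting interval 1720 to 51400) and 213 in siNT (72.5 to 1040). siELMO1, with no count at 0 h, was at least 179-fold higher at 24 h over a floor of 3 counts per library. This lower limit is another measure than those ratios, so they cannot be ranked against it. All counts fell on 1 annotated transcript with 5 exons (chr13:76948511-76958638, plus strand, GRCh38). Its RefSeq promoter window (chr13:76948261-76948560), the 250 bases before the start and the 50 from it on, is shown because ACOD1 went from near 0 to a clear signal, with TATAAA in capitals.

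ACOD1: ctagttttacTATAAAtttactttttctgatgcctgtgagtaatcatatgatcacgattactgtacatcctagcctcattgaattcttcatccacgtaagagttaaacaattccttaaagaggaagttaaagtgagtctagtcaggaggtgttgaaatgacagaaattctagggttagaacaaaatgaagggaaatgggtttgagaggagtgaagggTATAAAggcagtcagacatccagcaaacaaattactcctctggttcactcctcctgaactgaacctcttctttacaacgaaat

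The TATAAA nearest the start lay 33 to 28 bases before it, and 11.6% of the 34943 RefSeq promoter windows held TATAAA on either strand. Neither the interferon-stimulated response element core (GAAANNGAA), the gamma-activated site core (TTCNNNGAA) nor the NF-kB consensus was found in this window on either strand. They occurred in 8.1%, 7.7% and 11.3% of all windows. A match describes letters and is not a binding site.

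IDO1, the first enzyme of the kynurenine pathway, had no count in any of the 9 libraries at 0 h. At 24 h it reached 6.66, 5.82 and 7.51 CPM in Mock, 2.90, 1.62 and 3.11 CPM under siNT, and 1.80, 2.48 and 3.47 CPM in siELMO1. Every siNT and siELMO1 library lay below every Mock library, and the siNT and siELMO1 libraries overlapped. The level at 24 h was at least 160-fold higher than at 0 h in Mock, at least 55.0-fold in siNT and at least 44.1-fold in siELMO1, with a floor of 3 counts per library. IDO1-202 carried 89.8% to 95.4% of the counts on average.

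KYNU, kynureninase, differed between all transfections already before poly(I:C). Its level at 0 h was 58.5, 61.2 and 56.0 CPM in Mock, 111, 111 and 109 CPM under siNT, and 32.0, 30.7 and 31.9 CPM in siELMO1. After poly(I:C) it was 335, 348 and 376 CPM in Mock, 229, 217 and 230 CPM under siNT, and 181, 170 and 201 CPM in siELMO1. siNT thus held the highest libraries at 0 h and not at 24 h, and siELMO1 held the lowest at both times, with no overlap between groups. The rise was 6.03-fold in Mock, 2.05-fold in siNT and 5.84-fold in siELMO1. Its promoter window (chr2:142877414-142877713, plus strand) is shown because it held TTCNNNGAA at 2 places, 34 to 26 bases before the start and from 5 to 13 bases after it. These and TATAAA on either strand are in capitals.

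KYNU: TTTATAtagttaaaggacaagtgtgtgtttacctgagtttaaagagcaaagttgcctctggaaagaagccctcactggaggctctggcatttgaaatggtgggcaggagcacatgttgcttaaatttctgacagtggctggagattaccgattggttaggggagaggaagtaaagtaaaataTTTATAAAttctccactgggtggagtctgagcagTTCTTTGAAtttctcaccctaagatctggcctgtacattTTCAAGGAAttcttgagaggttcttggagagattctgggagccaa

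IL4I1 rose in level, and its counts were assigned to annotated starts in other shares at 24 h than at 0 h. At 0 h its libraries held 0.763, 0.729 and 0.958 CPM in Mock, 0.866, 0.903 and 0.269 CPM under siNT, and 1.94, 1.93 and 1.32 CPM in siELMO1. At 24 h they held 78.7, 69.1 and 88.8 CPM in Mock, 29.0, 27.7 and 44.8 CPM under siNT, and 64.3, 63.8 and 79.4 CPM in siELMO1. The siELMO1 libraries were the highest at 0 h and overlapped those of Mock at 24 h, while siNT stood below both. The fold change over time was 95.9 in Mock, 50.1 in siNT and 39.7 in siELMO1.

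The IL4I1 gene model (chr19:49889654-49929539, minus strand) holds transcripts that start near 49929539, inside the same stretch as NUP62, and transcripts that start near 49896887. At 0 h the internal start was assigned 0, 39 and 16 counts in Mock, none in siNT, and 34, 0 and 0 in siELMO1, and the upstream start was assigned 15 to 109 counts per library. At 24 h the internal start held 1519 to 5193 counts per library, 99.6% to 100.0% of the gene, and the upstream start held 0 to 7. NUP62, which encodes a nuclear pore protein on the same strand, held 3853 to 12351 counts per library, and how its reads were divided from those of IL4I1 was not tested.

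**Figure D2:**
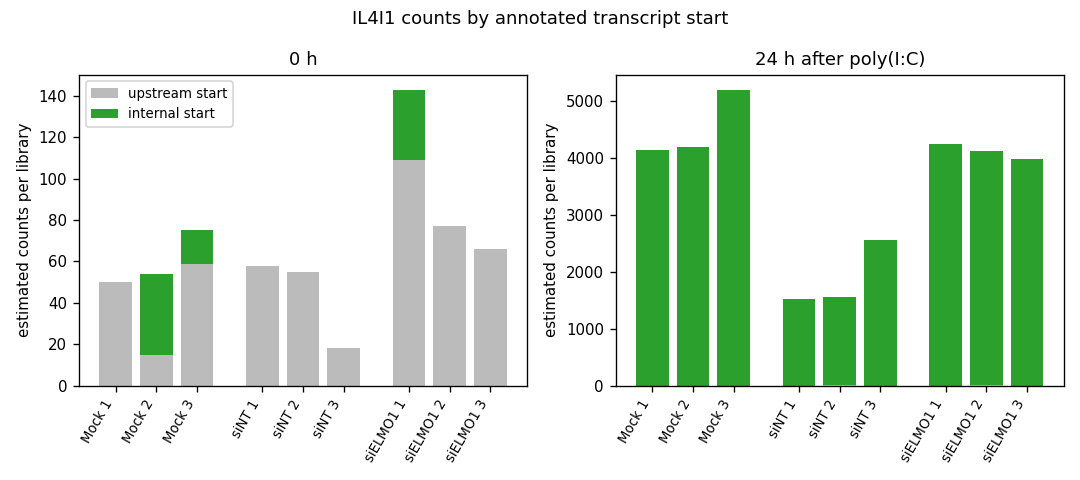
Estimated counts of IL4I1 per library, split by the annotated start of the transcript (upstream, shared with the NUP62 region, or internal), at 0 h on the left and 24 h on the right; the vertical axes differ. At 24 h the internal start carried 1519 to 5193 counts in each library, and at 0 h the whole gene held 18 to 143.

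The windows of both IL4I1 starts are shown for comparison, the upstream one from RefSeq (chr19:49929455-49929754) and the internal one read from GRCh38 at chr19:49896838-49897137, both in the sense of the minus strand. Neither held any of the motifs searched, so no letters are in capitals.

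IL4I1 upstream: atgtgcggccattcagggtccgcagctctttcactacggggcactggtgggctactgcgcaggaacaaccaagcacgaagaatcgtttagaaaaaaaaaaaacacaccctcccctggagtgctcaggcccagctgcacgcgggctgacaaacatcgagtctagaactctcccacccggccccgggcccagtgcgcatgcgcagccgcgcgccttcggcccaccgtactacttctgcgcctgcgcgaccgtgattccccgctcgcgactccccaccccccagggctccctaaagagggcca
IL4I1 internal: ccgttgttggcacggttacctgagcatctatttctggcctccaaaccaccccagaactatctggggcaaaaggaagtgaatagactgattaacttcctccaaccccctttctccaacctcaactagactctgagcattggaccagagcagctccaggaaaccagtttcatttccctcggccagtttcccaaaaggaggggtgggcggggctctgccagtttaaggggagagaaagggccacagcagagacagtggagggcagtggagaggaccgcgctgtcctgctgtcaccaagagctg

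WARS1 was among the most abundant of the genes. Its level at 0 h was 114, 117 and 111 CPM in Mock, 121, 127 and 122 CPM under siNT, and 141, 155 and 156 CPM in siELMO1. Its level at 24 h was 1203, 1257 and 1384 CPM in Mock, 415, 421 and 537 CPM under siNT, and 726, 715 and 802 CPM in siELMO1. siELMO1 was highest at 0 h and lay between siNT and Mock at 24 h, without overlap. The fold change over time was 11.3 in Mock, 3.72 in siNT and 4.96 in siELMO1.

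RefSeq gives WARS1 an upstream and a downstream start. Transcripts within 500 bases of the downstream start held 23.8% to 31.8% of the WARS1 counts in Mock at 0 h and 50.1% to 66.9% at 24 h. The same share ran from 43.3% to 89.8% among the 3 siNT libraries and from 34.4% to 86.6% among the 3 siELMO1 libraries at 24 h, so the assignment varied too widely between replicates for a comparison of transfections. The downstream window (chr14:100375298-100375597, minus strand) held GAAANNGAA at 55 to 47 bases before the start and TTCNNNGAA at 142 to 134 bases before it. Both are in capitals, with TTTATA, which is TATAAA on the other strand.

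WARS1 downstream: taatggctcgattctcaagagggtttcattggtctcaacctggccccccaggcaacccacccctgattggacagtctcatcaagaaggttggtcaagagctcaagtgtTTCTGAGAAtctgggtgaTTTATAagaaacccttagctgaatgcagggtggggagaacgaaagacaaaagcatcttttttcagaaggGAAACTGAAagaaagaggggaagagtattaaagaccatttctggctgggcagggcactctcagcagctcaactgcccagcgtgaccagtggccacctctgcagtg

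The upstream WARS1 window held none of the motifs. Among the members whose RefSeq windows were searched, GAAANNGAA was found in the downstream WARS1 window and TTCNNNGAA in that window and the KYNU window. No promoter window of GCH1 or IDO1 was searched, so nothing is said of their motifs.

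GCH1, the entry to tetrahydrobiopterin, was low before poly(I:C). Its level at 0 h was 8.26, 6.63 and 7.51 CPM in Mock, 16.0, 15.1 and 13.7 CPM under siNT, and 6.85, 6.62 and 7.14 CPM in siELMO1. After poly(I:C) it was 178, 168 and 199 CPM in Mock, 77.9, 66.0 and 92.0 CPM under siNT, and 92.7, 84.7 and 120 CPM in siELMO1. siNT was highest at 0 h, and at 24 h the siNT and siELMO1 libraries overlapped below Mock. The fold change over time was 24.3 in Mock, 5.27 in siNT and 14.4 in siELMO1.

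SOD2 became the most abundant transcript of the set. It moved within 56.5 to 81.9 CPM in all 9 libraries at 0 h. After 24 h of poly(I:C) it reached 3884, 3564 and 3895 CPM in Mock, 1161, 1070 and 1190 CPM under siNT, and 2736, 2522 and 3049 CPM in siELMO1, and the groups did not overlap. The fold change over time was 47.6 in Mock, 15.4 in siNT and 44.6 in siELMO1. SOD2-210 held 82.7% to 88.5% of the counts on average in each group. The SOD2 gene model overlaps WTAP and ACAT2 on the other strand, and whether the counting used strand is not given in the sources used here.

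NAMPT, the rate-limiting enzyme of NAD recycling, changed least over time in Mock and siNT. Its level at 0 h was 236, 237 and 230 CPM in Mock, 193, 190 and 197 CPM under siNT, and 188, 204 and 213 CPM in siELMO1. Its level after poly(I:C) was 504, 524 and 516 CPM in Mock, 369, 353 and 354 CPM under siNT, and 368, 363 and 413 CPM in siELMO1. Mock stood above both siRNA groups at both times, and the siRNA groups overlapped. The fold change over time was 2.20 in Mock, 1.86 in siNT and 1.89 in siELMO1. The pseudogene NAMPTP1, which held 10.9 to 30.1 CPM, can share reads with NAMPT, so these values are uncertain to that extent.

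PTGS2 differed most between transfections before poly(I:C). At 0 h it held 17.1, 18.1 and 18.7 CPM in Mock, 6.95, 4.84 and 6.14 CPM under siNT, and 77.5, 77.8 and 65.6 CPM in siELMO1. At 24 h it held 224, 228 and 248 CPM in Mock, 36.1, 34.6 and 35.9 CPM under siNT, and 110, 100.4 and 153 CPM in siELMO1. siELMO1 was highest at 0 h, Mock was highest at 24 h, siNT was lowest at both, and no groups overlapped. The fold change over time was 13.0 in Mock, 5.93 in siNT and 1.64 in siELMO1, so the siELMO1 level before poly(I:C) was above the siNT level after it. The promoter window (chr1:186680374-186680673, minus strand) held TATAAA at 32 to 27 bases before the start, in capitals.

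PTGS2: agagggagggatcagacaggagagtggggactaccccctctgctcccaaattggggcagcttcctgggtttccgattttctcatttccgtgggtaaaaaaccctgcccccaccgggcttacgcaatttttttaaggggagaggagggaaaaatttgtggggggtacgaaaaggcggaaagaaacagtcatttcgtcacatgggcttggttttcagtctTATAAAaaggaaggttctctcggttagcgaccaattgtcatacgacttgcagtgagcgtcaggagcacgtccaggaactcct

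CH25H, whose product 25-hydroxycholesterol limits virus entry, had 0 counts in all 18 libraries. The counting limit allowed at most 0.0406 to 0.0743 CPM per library, so its induction was not detectable at this depth. CYP7B1, which converts its product onwards, also had no count, and GPR183, the receptor for the resulting oxysterols, reached at most 0.571 CPM.

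Compared per length as TPM, which divides each gene's counts by transcript length, SOD2 and WARS1 led in Mock at 24 h, with 1920 ± 118 and 1114 ± 75.5 TPM (SD, n = 3). NAMPT followed at 249 ± 34.8 TPM. The next levels were 150 ± 14.2 TPM for GCH1, 137 ± 21.6 TPM for KYNU and 117 ± 7.22 TPM for PTGS2, and the libraries of GCH1 overlapped those of KYNU, as those of KYNU overlapped those of PTGS2. IL4I1 at 99.2 ± 13.5 TPM, ACOD1 at 59.9 ± 1.11 TPM and IDO1 at 8.47 ± 1.07 TPM closed the order. In siNT at 24 h ACOD1 (3.46 ± 0.378 TPM) and IDO1 (3.55 ± 0.960 TPM) overlapped at the foot of the order.

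The first question was how siRNA transfection changed the enzymes after poly(I:C). At 24 h all 9 genes tested were lower in siNT than in Mock, where 24.9% of all genes tested were lower (edgeR quasi-likelihood test, Benjamini-Hochberg adjusted p). Their median log2 fold change was −1.39, against 0.00 over all genes. The change over time helped to choose these genes. Their counts and medians in the 24 h comparisons, here and below, are therefore a description of the set. ACOD1 fell to 5.73% of Mock (log2 fold change −4.13, SE 0.19, adjusted p = 2.5e-10), PTGS2 to 15.2% (−2.72, SE 0.13, adjusted p = 7.2e-11) and SOD2 to 30.2% (−1.73, SE 0.07, adjusted p = 1.7e-11). WARS1 fell to 35.7%, IDO1 to 38.2%, IL4I1 to 42.9%, GCH1 to 43.3%, KYNU to 63.8% and NAMPT to 69.7%, with adjusted p of at most 0.0023. The study reports massive death of siNT cells after poly(I:C), with much less death in Mock and siELMO1 cells. It proposes that cell death is the likely reason for the lower inflammatory transcripts in siNT. Comparisons with siNT at 24 h, here and below, may therefore not be between equally viable cultures. The part of cell death in these enzyme levels was not tested. In bulk RNA, fewer responding cells and less RNA per cell cannot be told apart. These libraries are described as biological replicates by the study, without saying how cultures were separated, and the p-values measure the spread between these libraries.

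At 24 h, 6 of the 9 genes were higher in siELMO1 than in siNT and 1 was lower. Of all genes tested, 26.0% were higher and 26.5% lower. PTGS2, IL4I1 and WARS1 were already higher in siELMO1 at 0 h, where SOD2, GCH1 and KYNU were lower. At 24 h, PTGS2 was 3.41-fold higher (log2 fold change 1.77, SE 0.13, adjusted p = 4.7e-09), ACOD1 3.20-fold (1.68, SE 0.18, adjusted p = 1.7e-06) and SOD2 2.43-fold (1.28, SE 0.07, adjusted p = 2.5e-10). IL4I1 was 2.04-fold higher (1.03, SE 0.19, adjusted p = 0.0002), WARS1 1.63-fold (0.71, SE 0.08, adjusted p = 1.4e-06) and GCH1 1.26-fold (0.33, SE 0.12, adjusted p = 0.028). KYNU was the member that was lower, at 81.7% of siNT (−0.29, SE 0.06, adjusted p = 0.00034). IDO1 (0.02, 95% interval −0.63 to 0.67) and NAMPT (0.09, 95% interval −0.02 to 0.20) did not pass the test, with adjusted p of 0.96 and 0.16. The median of the 9 genes was 0.71 on the log2 scale, against −0.01 over all genes. The GCH1 call did not hold without siELMO1 replicate 3 (0.18, adjusted p = 0.21), without siNT replicate 2 (0.22, adjusted p = 0.15) or without siNT replicate 1 (0.33, adjusted p = 0.069), nor with library totals (0.29, adjusted p = 0.059) or a fit of the compared groups alone (0.34, adjusted p = 0.076).

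The siELMO1 levels nevertheless stayed below Mock for most of the genes. At 24 h, 8 of the 9 were lower in siELMO1 than in Mock, where 22.0% of all genes tested were lower, with a median of −0.87 against −0.01. ACOD1 was at 18.3% of Mock (−2.45, SE 0.17, adjusted p = 2.3e-08), IDO1 at 38.7%, PTGS2 at 51.8%, KYNU at 52.2%, GCH1 at 54.6%, WARS1 at 58.3%, SOD2 at 73.3% and NAMPT at 74.1%. IL4I1 stood at 87.6% of Mock and did not pass the test (−0.19, 95% interval −0.58 to 0.20, adjusted p = 0.43). These comparisons share libraries and are not independent of each other.

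**Figure D3:**
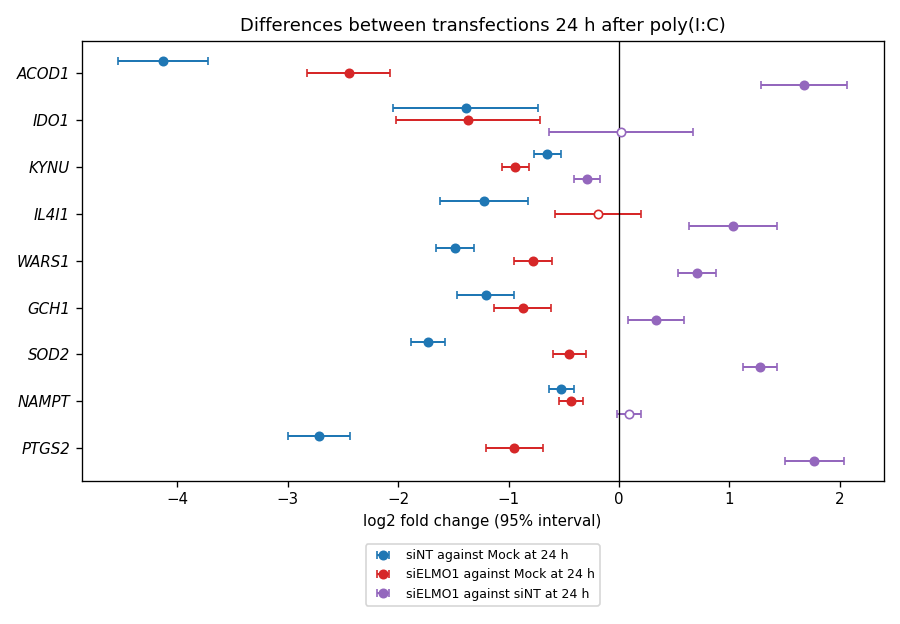
Log2 fold change at 24 h of each tested gene for siNT against Mock, siELMO1 against Mock and siELMO1 against siNT (horizontal axis); points are edgeR estimates from 3 libraries a group, bars are 95% intervals, and filled points have an adjusted p under 0.05. Both siRNA groups lie left of 0 against Mock, from −4.13 for ACOD1 in siNT to −0.19 for IL4I1 in siELMO1, and KYNU is the gene that is lower in siELMO1 than in siNT.

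Before poly(I:C), siNT and siELMO1 differed from Mock in opposite directions for PTGS2 and KYNU. In siNT, KYNU (1.88-fold, log2 fold change 0.91, SE 0.06, adjusted p = 7.9e-10) and GCH1 (2.00-fold, 1.00, SE 0.14, adjusted p = 8.3e-06) were higher than in Mock, and PTGS2 (33.3% of Mock, −1.59, SE 0.14, adjusted p = 5.7e-08) and NAMPT (82.5%, −0.28, SE 0.05, adjusted p = 0.00024) were lower. Of the 7 genes with counts to compare at 0 h (ACOD1 and IDO1 were at the floor), 2 were thus higher and 2 lower, where 27.6% of all genes tested were higher and 24.0% lower. In siELMO1, PTGS2 was 4.09-fold higher than in Mock (2.03, SE 0.13, adjusted p = 5.6e-10), with IL4I1 and WARS1 also higher, and KYNU was lower, at 53.9% (−0.89, SE 0.06, adjusted p = 8.6e-10), with SOD2 and NAMPT also lower. That is 3 of 7 in each direction, where 27.9% of all genes tested were higher and 22.4% lower.

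Between the siRNAs at 0 h, PTGS2 was 12.3-fold higher in siELMO1 than in siNT (3.62, SE 0.15, adjusted p = 6.3e-13) and KYNU was at 28.7% of siNT (−1.80, SE 0.06, adjusted p = 8.5e-14). GCH1 was at 46.1% (−1.12, SE 0.14, adjusted p = 1.9e-06) and SOD2 at 83.5% (−0.26, SE 0.07, adjusted p = 0.0048), while IL4I1 was 2.58-fold (1.37, SE 0.34, adjusted p = 0.0018) and WARS1 1.22-fold (0.29, SE 0.08, adjusted p = 0.0049) higher. Of the 7 genes, 3 were thus higher and 3 lower, where 31.3% of all genes tested were higher and 31.3% lower. Without the siELMO1 libraries 2 and 3, PTGS2 (3.70, adjusted p = 2.2e-10), KYNU (−1.77, adjusted p = 6.3e-10), GCH1 (−1.11, adjusted p = 0.00057) and IL4I1 (1.54, adjusted p = 0.0093) were still called, and SOD2 (−0.12, adjusted p = 0.29) and WARS1 (0.21, adjusted p = 0.15) were not, with the lone library assumed to vary like the other groups. The IL4I1 difference rested on 18 to 143 counts per library, most of them assigned to the upstream start, and limma-voom did not call it (adjusted p = 0.058). Against Mock, the WARS1 call was also lost without these libraries (0.28, adjusted p = 0.080), and PTGS2 (2.07, adjusted p = 1e-07), KYNU (−0.91, adjusted p = 9.8e-07), IL4I1 (1.21, adjusted p = 0.038), SOD2 (−0.27, adjusted p = 0.037) and NAMPT (−0.36, adjusted p = 0.00056) were still called.

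**Figure D4:**
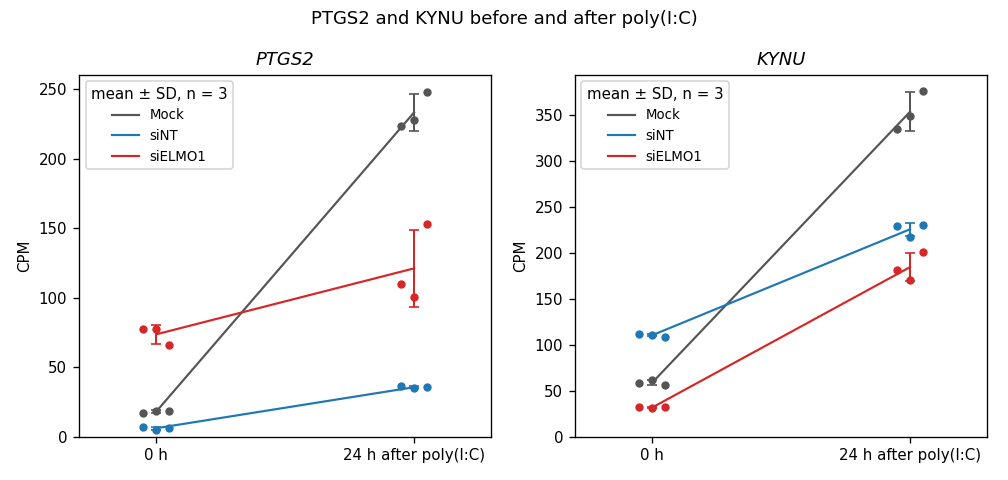
CPM of PTGS2 and KYNU at 0 h and 24 h (linear axes from 0) in Mock, siNT and siELMO1; points are libraries, lines join the means and bars are SD (n = 3). PTGS2 in siELMO1 begins at 73.6 CPM and ends at 121 CPM, while KYNU in siNT begins at 110 CPM and ends at 225 CPM.

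Whether the change from 0 h to 24 h differed between transfections was tested as an interaction. Only the 7 genes with counts at 0 h have a difference to give. Since the change over time helped to choose these genes, their counts beside the shares of all genes are a description of the set. Compared with Mock, the change was smaller in siNT for 6 of the 7, among them GCH1 (−2.21, SE 0.18, adjusted p = 1e-07) and KYNU (−1.56, SE 0.08, adjusted p = 7e-10). Of all genes tested, 16.0% had a lower signed log2 fold change, which includes genes that fell further. The NAMPT call (−0.24, adjusted p = 0.017) did not hold without Mock replicate 3 at 0 h (−0.21, adjusted p = 0.066) or with library totals (−0.16, adjusted p = 0.082). ACOD1 had an adjusted p of 0.038 in this test, but its 0 h libraries held 0 to 3 counts, so it is not counted and no size is given. In siELMO1 the change was smaller than in Mock for 5 of the 7 genes, where 14.6% of all genes tested had a lower signed log2 fold change. PTGS2 led with −2.98 on the log2 scale (SE 0.18, adjusted p = 2.8e-09), and the change in KYNU (−0.05, 95% interval −0.22 to 0.13) and SOD2 (−0.09, 95% interval −0.31 to 0.12) did not pass the test. IL4I1 was 1 of the 5 (−1.27, adjusted p = 0.015), and limma-voom did not call it (adjusted p = 0.14). Most of its counts were assigned to the upstream start at 0 h and to the internal start at 24 h. Its difference thus spans transcripts with different starts. Without the siELMO1 libraries 2 and 3 at 0 h, GCH1 (adjusted p = 0.062) and NAMPT (adjusted p = 0.57) were not called and 3 genes were left, with PTGS2 at −3.02, WARS1 at −1.05 and IL4I1 at −1.40 (adjusted p = 0.048), and without Mock replicate 2 at 0 h 3 were left as well. The NAMPT call (−0.22, adjusted p = 0.036) was also lost with library totals (adjusted p = 0.10), with no filter (0.19), with filterByExpr (0.053), with the compared groups alone (0.076) and without any single library of these groups except siELMO1 replicate 1 at 0 h and replicate 3 at 24 h (0.061 to 0.12). Between siELMO1 and siNT the change was larger for KYNU, SOD2, GCH1 and WARS1, 4 of the 7, and smaller for PTGS2, 1 of the 7. Of all genes tested, 16.7% had a higher and 17.8% a lower signed log2 fold change. KYNU differed by 1.51 (SE 0.08, adjusted p = 2.9e-10) and at 24 h its level was still below that of siNT. All 5 were still called without the siELMO1 libraries 2 and 3 at 0 h, with KYNU at 1.51 (adjusted p = 7.1e-08), SOD2 at 1.43 (3.1e-07), GCH1 at 1.48 (0.00052), WARS1 at 0.53 (0.015) and PTGS2 at −1.90 (1.2e-05). The siELMO1 log2 change over time without them was 2.52 for KYNU, 3.85 for GCH1, 5.35 for SOD2, 1.02 for NAMPT, 0.64 for PTGS2, 2.40 for WARS1 and 5.15 for IL4I1.

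**Figure D5:**
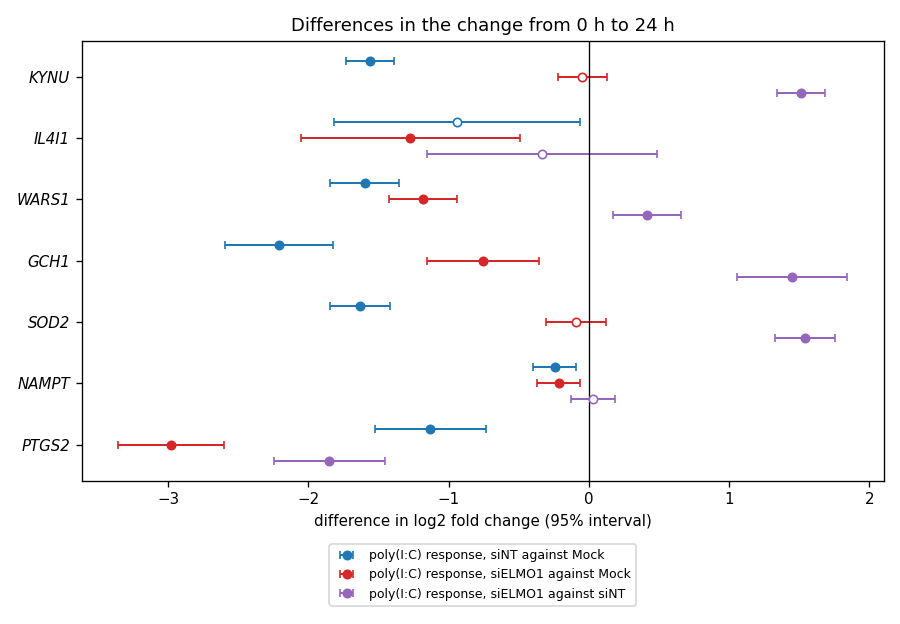
Difference in the log2 fold change from 0 h to 24 h between transfections (horizontal axis) for the 7 genes with counts at 0 h; points are edgeR interaction estimates, bars are 95% intervals, and filled points have an adjusted p under 0.05. PTGS2 lies at −2.98 for siELMO1 against Mock, where KYNU and SOD2 lie near 0.

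The enzymes that act beside these genes were taken from lists chosen by known role, with earlier results in view. Of 18 tested genes of the citric acid cycle and itaconate list, 1 was higher and 11 were lower at 24 h than at 0 h in Mock, where 30.7% of all genes tested were higher and 29.6% lower. Of 7 tested genes around tetrahydrobiopterin and nitric oxide, 5 were lower, among them NOS3, the endothelial nitric oxide synthase (332, 339.5 and 328 CPM at 0 h, 160, 170 and 188 CPM at 24 h, log2 fold change −0.95, SE 0.06, adjusted p = 1.1e-10). GCHFR, the feedback regulator of GCH1, reached at most 12 counts in a library. In the kynurenine list, 4 of 11 rose and 4 fell. TDO2, the other tryptophan dioxygenase, did not pass the test (3.37, 3.19 and 4.21 CPM before poly(I:C), 3.35, 3.06 and 4.45 CPM after it, adjusted p = 0.97), IDO2 reached at most 3 counts, and KMO, which acts between IDO1 and KYNU, was at most 0.414 CPM. Of 13 tested superoxide and peroxide genes, 2 rose and 5 fell, and SOD1, the cytosolic counterpart of SOD2, did not pass the test (172 ± 5.38 CPM at 0 h and 156 ± 3.56 CPM at 24 h, SD, n = 3, adjusted p = 0.073). WARS2, the mitochondrial counterpart of WARS1, lay at 17.9 and 19.4 CPM on average (adjusted p = 0.19), and of 23 tested tRNA synthetase genes 9 rose and 7 fell. Prostanoid genes rose in 4 and fell in 3 of 11 cases, and oxysterol genes in 4 and 3 of 9. In the NAD list 8 of 16 rose and 1 fell.

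In siELMO1 against siNT at 24 h, 11 of 16 genes of the NAD list were higher and 3 lower, with a median log2 fold change of 0.31, where 26.0% of all genes tested were higher and 26.5% lower. The NAD list holds genes that use NAD as well as genes that make it. The counts of the other lists in this comparison stand against the same shares. NMNAT1, the nuclear enzyme that completes NAD, was 3.25-fold higher (10.2, 9.58 and 9.56 against 2.73, 3.10 and 3.18 CPM, log2 fold change 1.70, SE 0.10, adjusted p = 5.3e-10), and NMNAT2 was 3.23-fold higher (1.69, SE 0.11, adjusted p = 9.4e-10). In Mock these stood at 9.05 and 9.57 CPM on average, and both were lower in siNT than in Mock (−1.59, adjusted p = 2e-09, and −1.24, adjusted p = 5.1e-08), as were 10 of the 16 genes, where 24.9% of all genes tested were lower. NOS3 was at 40.9% of siNT in siELMO1 (−1.29, SE 0.06, adjusted p = 2e-11), and 5 of 7 genes of its list were lower. Against Mock at 24 h, NOS3 was 2.10-fold higher in siNT (1.07, SE 0.06, adjusted p = 1.9e-10) and at 86.1% in siELMO1 (−0.22, SE 0.06, adjusted p = 0.0047). In the prostanoid list PTGIS, prostacyclin synthase, was 6.35-fold higher (2.67, SE 0.39, adjusted p = 1.9e-05, at 2.75 to 4.17 CPM in siELMO1) and PTGES, a synthase of prostaglandin E2, was at 35.1% (−1.51, SE 0.45, adjusted p = 0.009, at 0.499 to 1.11 CPM in siELMO1), while PTGS1 did not pass the test (adjusted p = 0.61). Against Mock, PTGES was 4.60-fold higher in siNT (2.20, SE 0.47, adjusted p = 0.00079) and did not pass the test in siELMO1 (0.69, adjusted p = 0.25), and PTGIS was 6.23-fold higher in siELMO1 (2.64, SE 0.39, adjusted p = 2.6e-05). In all, 3 of 11 were higher and 3 lower. Oxysterol genes were higher in 5 of 9 cases, among them the cholesterol exporter ABCA1 (2.18-fold) and the oxysterol receptor NR1H3 (2.56-fold). In the citric acid cycle list 2 of 18 were higher, among them the isocitrate dehydrogenase gene IDH2 (1.41-fold), and 9 were lower. The kynurenine list had 4 of 11 higher and 2 lower, led by CYP1A1 (2.18-fold) and AADAT (54.5%), the peroxide list 5 of 13 higher and 5 lower, led by NOX1 (37.7%) and NOX4 (2.22-fold), and the synthetases 6 of 23 higher and 7 lower, led by HARS1 (1.41-fold) and GARS1 (76.7%). NAPRT, the NAD entry from nicotinic acid, was 1.29-fold higher (0.37, SE 0.12, adjusted p = 0.013), and PCBD1, which recycles tetrahydrobiopterin, was at 62.8%.

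Over the 18 libraries, the genes whose log2 CPM was most like that of ACOD1 among 12875 genes were IFNB1 (Pearson's r = 0.995), NEURL3 (0.994), IFNL1 (0.990), WTAP (0.988) and IL12A (0.988). IFNB1 held 1069, 1288 and 1604 counts in Mock, 89, 80 and 109 in siNT and 383, 355 and 581 in siELMO1 at 24 h, the same order of groups as ACOD1. For the others the most alike gene was HIVEP2 for IDO1 (0.993), DCP1A for KYNU (0.985), UBE2L6 for IL4I1 (0.997), IL6 for WARS1 (0.995), NFKBIA for GCH1 (0.994), OASL for SOD2 (0.998), NAMPTP1 for NAMPT (0.994) and SYT1 for PTGS2 (0.979). All these points share libraries and the step from 0 h to 24 h, so the values are a description. Among the members themselves, ACOD1 was most like WARS1 (0.985) and least like PTGS2 (0.784), and over the 9 libraries at 0 h PTGS2 and KYNU ran against each other (r = −0.992), which rests on 3 conditions.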

How the data were processed

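RNA from 18 EA.hy926 libraries (6 groups of 3) was sequenced by the authors as 100 bp paired reads from a stranded mRNA kit. Per the study's methods and the labels, reads were aligned with STAR to GRCh38 and quantified with StringTie against GENCODE 44, and the deposited values are estimated counts per gene and per transcript. These are derived from read coverage, so near-identical copies and overlapping genes may share reads. Whether strand was used at this step is not given in the sources used here. The columns were matched to groups by the sample labels.

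The estimated counts were rounded to whole numbers. Genes were kept where all libraries together held at least 100 counts and 1 library reached 1 CPM (15167 genes, 9 of the 10 members), as in the study, and TMM factors (0.958 to 1.06) were applied. All contrasts came from 1 edgeR 4.0.16 quasi-likelihood model of the 6 groups without a replicate block, in R 4.3.3, with Benjamini-Hochberg adjustment over all genes tested and a threshold of 0.05. The model was tested on simulated data with known changes. An exact permutation test of 3 against 3 libraries cannot go below 0.10. CPM are TMM-scaled. TPM were computed from the transcript counts and annotated lengths. Correlations used log2(CPM + 0.5). Intervals of count ratios are exact and cover counting error only.

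The genes, pathway lists and marker lists were chosen with earlier results of these data known. Named were all members, ELMO1, the 2 called genes with the largest change in siELMO1 against siNT at 24 h and the direct neighbours from each pathway list, the 5 genes most like ACOD1 and the gene most like each other member. A gene that this rule names is not reported here. IL4I1 and WARS1 starts were chosen after their values were seen. Promoter windows came from RefSeq (GRCh38.p14), and motifs were searched on both strands.

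Same-numbered libraries deviated together at 24 h in Mock and siNT (correlations 0.148, 0.218 and 0.303 over 10896 genes), and not in every pair of any other groups compared. Alternatives were DESeq2 1.42.0, limma-voom (limma 3.58.1), other scalings and filters, a replicate block, fits of the compared groups alone, a fold threshold of 2 and leaving out each library.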

Additional observations from a re-analysis of the deposited data

Results flagged for a closer look

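The change from 0 h to 24 h of poly(I:C) differed between transfections for the 7 genes with counts at 0 h in at least 1 edgeR interaction test, here as differences in log2 fold change. ACOD1, at 0 to 3 counts at 0 h, is left out. In siNT against Mock, it was −1.56 for KYNU (adjusted p = 7e-10), −2.21 for GCH1 (1e-07), −1.63 for SOD2 (6.2e-09), −0.24 for NAMPT (0.017), −1.13 for PTGS2 (0.00019) and −1.60 for WARS1 (2.3e-08).

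In siELMO1 against Mock, it was −0.76 for GCH1 (adjusted p = 0.006, edgeR), −0.22 for NAMPT (0.036), −2.98 for PTGS2 (2.8e-09), −1.18 for WARS1 (7.1e-07) and −1.27 for IL4I1 (0.015).

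In siELMO1 against siNT, it was 1.51 for KYNU (adjusted p = 2.9e-10, edgeR), 1.45 for GCH1 (9.4e-06), 1.54 for SOD2 (3.3e-09), −1.85 for PTGS2 (5.6e-07) and 0.42 for WARS1 (0.0095). The 3 comparisons share libraries. Apart from the mitochondrial share, which set siELMO1 replicates 2 and 3 at 0 h apart, groups of 3 were not searched for outlying libraries.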

How the results depend on the processing

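When a call also needed more than a fold of 2, siNT at 0 h had 0 genes higher and 1 lower than Mock, siELMO1 had 0 genes lower than Mock at 0 h and 2 at 24 h, 0 were lower in siELMO1 than in siNT at 24 h, and 3 had a smaller response in siELMO1 than in Mock. The last count was also 3 without siELMO1 replicates 2 and 3 at 0 h, an alternative chosen after seeing the data. Scaled by library totals alone, the median log2 fold change in Mock was 4.48. The share of counts on a gene's leading transcript, with a median of 86.1%, was 56.5% per base of length. The replicate block changed no call of a member, and under it, too, all 9 genes were lower at 24 h in siNT than in Mock.

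Leaving out 1 library at a time gave a median log2 fold change of 4.49 to 4.66 in Mock, 2.44 to 2.69 in siNT and 3.69 to 3.95 in siELMO1, and a leading transcript share of 85.8% to 86.5%. It gave 5 to 6 genes higher in siELMO1 than in siNT at 24 h, 3 to 5 with a smaller response in siELMO1 than in Mock and 5 to 8 with a smaller response in siNT than in Mock, a count of 7 with ACOD1 included.

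The differences that changed sign had not passed the test. For IDO1 in siELMO1 against siNT at 24 h the log2 fold change was −0.027 with library totals, −0.009 with limma-voom, and −0.247 to 0.224 without single libraries. For the KYNU response in siELMO1 against Mock it was 0.013 with library totals and −0.112 to 0.01 without single libraries. The NAMPT response in siELMO1 against siNT ran from −0.032 to 0.068 without single libraries, and NAMPT in siELMO1 against siNT at 0 h was −0.031 without siELMO1 replicates 2 and 3. Leaving out single libraries moved IL4I1 in siNT against Mock at 0 h from −0.53 to 0.107, its response in siELMO1 against siNT from −0.582 to 0.056, and ELMO1 in siNT against Mock at 0 h from −0.13 to 0.032. Under limma-voom the IL4I1 calls of siELMO1 against Mock were lost, both at 0 h (adjusted p = 0.15) and for the response (adjusted p = 0.14). The cause was not tested. Depth limits ACOD1, IDO1 and IL4I1 at 0 h and CH25H throughout.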
